A study of Mus musculus with 30 samples.

Results

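A set of 38 genes for lysosomal enzymes, lysosomal membrane proteins, subunits of the lysosomal proton pump and regulators of the lysosome was followed through livers with and without hepatocyte CEBPA. The genes were chosen by symbol, and all 38 were found among the 55450 genes of the deposited count table. Of the 38, 5 are labelled macrophage-restricted, for macrophages and their relatives (*Cd68*, *Laptm5*, *Ctss*, *Ctsk* and *Atp6v0d2*). Another 5 are labelled macrophage-enriched (*Ctsc*, *Ctsh*, *Ctsz*, *Lgmn* and *Grn*), and the other 28 are expressed in nearly every cell type. The labels do not mean that no other liver cell makes a member, and *Laptm5* is found in blood cells more widely. These 3 classes were set from textbook knowledge, but with earlier results of these data known, so they are not independent of the values reported here. *Ctsk* and *Atp6v0d2* did not pass in every comparison in which most macrophage markers rose, as given below.

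Liver poly(A) RNA was sequenced from male mice on a diet rich in fat, cholesterol and fructose (HFCFD) with strand-specific libraries, 1 library per mouse and 5 mice per group, so that 30 libraries fall into 6 groups and 3 experiments. CEBPA is a transcription factor of hepatocytes, the main cell type of the liver, and the study asked how its loss from hepatocytes affects diet-induced liver disease. In HFCFD2W, *Cebpa* fl/fl mice (floxed *Cebpa* without Cre) and *Cebpa* ΔHep mice (the same alleles with Cre driven by the albumin promoter, constitutively active in hepatocytes) were on the diet for 2 weeks. In HFCFD8W+T10D, *Cebpa* fl/fl mice were set beside *Cebpa* ΔHep,ERT2 mice (albumin-driven, tamoxifen-inducible ERT2-Cre), both given 8 weeks of diet and 10 days of tamoxifen, and in HFCFD12W+T10W the same 2 genotypes had 22 weeks of diet, 12 before and 10 with tamoxifen. Mice of both genotypes were labelled with tamoxifen in the latter 2 experiments. *Cebpa* fl/fl mice are called WT and knockout mice KO below, and values of single mice follow the order of their numbers, 1 to 5 in each group except the KO mice of HFCFD2W, which are numbered 2 to 6. Diet time, Cre line, tamoxifen and experiment change together and cannot be told apart between experiments. The albumin promoter confines the deletion to hepatocytes and other albumin-expressing cells, and does not target macrophages.

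The lysosome is the acidic compartment in which a cell degrades proteins, lipids, sugars and whole organelles. A proton pump of many subunits, the V-ATPase, acidifies it, soluble hydrolases such as the cathepsins cleave the cargo, and membrane proteins shield the boundary and export the products. Macrophages take up lipoproteins, debris and dying cells and carry many lysosomes, some with proteins that few other cells make. Transcription of many lysosomal genes is raised by TFEB and TFE3, which bind an element named CLEAR whose core is the palindrome TCACGTGA.

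The promoters of the lysosomal genes were searched for TCACGTGA, since it is the element through which members could share a regulator. It reads the same on both strands, and every copy also holds the shorter E-box CACGTG. RefSeq promoter windows on GRCm38.p6, from 250 bases before to 50 bases after a gene's start, were matched for 33 of 38 members. TCACGTGA was present in 6 of those 33 (18.2%), against 1.12% of 27025 genes with a window, and CACGTG in 11 (33.3%), against 8.09%. All 6 holders (*Ctsd*, *Gla*, *Mcoln1*, *Atp6v1a*, *Atp6v0d1* and *Ctsa*) are widely expressed members. None of the 4 macrophage-restricted members with a window and none of the 4 enriched ones held it, and among those 8 the E-box was present in *Lgmn*. A match is a description of the letters, and a window without one says only that the letters are not in it. Of the holders 4 are printed 5′ to 3′ on the strand of the gene, with TCACGTGA in capitals, because they passed the genotype test in HFCFD12W+T10W, *Ctsd* and *Gla* with higher and *Mcoln1* and *Atp6v0d1* with lower values in KO livers. The windows are chr7:142387778-142388077 (minus strand), chrX:134600956-134601255 (minus strand), chr8:3500269-3500568 (plus strand) and chr8:105566015-105566314 (minus strand).
Ctsd: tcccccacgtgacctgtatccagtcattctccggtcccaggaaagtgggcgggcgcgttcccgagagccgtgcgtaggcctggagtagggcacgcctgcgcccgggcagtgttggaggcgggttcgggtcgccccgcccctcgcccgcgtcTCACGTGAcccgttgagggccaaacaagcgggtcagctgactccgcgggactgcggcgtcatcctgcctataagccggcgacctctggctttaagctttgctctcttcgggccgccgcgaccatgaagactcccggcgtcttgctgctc
Gla: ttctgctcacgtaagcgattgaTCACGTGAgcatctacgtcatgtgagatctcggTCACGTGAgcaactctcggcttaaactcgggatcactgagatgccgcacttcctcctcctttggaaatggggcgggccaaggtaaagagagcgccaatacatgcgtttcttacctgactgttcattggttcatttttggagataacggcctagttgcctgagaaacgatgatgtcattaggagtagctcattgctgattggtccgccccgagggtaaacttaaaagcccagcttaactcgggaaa
Mcoln1: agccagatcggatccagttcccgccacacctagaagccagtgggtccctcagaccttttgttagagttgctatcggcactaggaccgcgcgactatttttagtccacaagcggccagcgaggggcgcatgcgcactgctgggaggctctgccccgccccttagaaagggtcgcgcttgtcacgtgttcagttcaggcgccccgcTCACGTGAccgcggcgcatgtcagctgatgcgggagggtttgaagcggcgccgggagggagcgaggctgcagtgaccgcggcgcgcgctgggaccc
Atp6v0d1: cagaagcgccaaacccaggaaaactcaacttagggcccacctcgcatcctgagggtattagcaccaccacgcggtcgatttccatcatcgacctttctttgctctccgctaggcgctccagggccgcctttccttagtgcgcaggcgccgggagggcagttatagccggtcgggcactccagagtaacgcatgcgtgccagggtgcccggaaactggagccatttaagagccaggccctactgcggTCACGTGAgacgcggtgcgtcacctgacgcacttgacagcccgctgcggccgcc
The element begins 99 bases before the start in *Ctsd*, 228 and 195 bases before it in *Gla*, 46 bases before it in *Mcoln1* and 4 bases before it in *Atp6v0d1*. *Atp6v1a*, a catalytic subunit of the proton pump, and *Ctsa*, the protective carboxypeptidase of lysosomal glycosidases, also held it and passed the test under TMM in no experiment.

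Total counts were 7996123 to 10257347 per library. Values are counts scaled for depth (CPM) with edgeR's TMM factors, which centre the bulk of the genes, and levels of different genes are compared only in the deposited TPM, which also account for length. The targeted gene was lower in every KO mouse, with mean *Cebpa* of 177 against 4.74 CPM after 2 weeks (HFCFD2W), 144 against 17.2 CPM in HFCFD8W+T10D, and 114 against 21.2 CPM in HFCFD12W+T10W. In bulk liver, more or fewer cells of a type and more or less RNA per cell cannot be told apart. Hepatocyte markers were abundant in every group, and the summed level of 6 of them in WT and KO livers was 133870 ± 13332 and 150440 ± 23356 CPM in HFCFD2W, 135520 ± 14264 and 100180 ± 21345 CPM in HFCFD8W+T10D, and 113350 ± 10814 and 71747 ± 3225 CPM in HFCFD12W+T10W, where the genotypes did not overlap. Taken singly in HFCFD12W+T10W, 2 of these 6 markers were lower in KO livers by the genotype test given below, beside 23.8% of all genes. The other 4 did not pass, and the median log2 fold change of the 6 was -0.04. TMM factors in HFCFD12W+T10W were 0.96 to 1.03 in WT and 1.29 to 1.38 in KO libraries, so values there depend on the scaling. With library totals in place of TMM the median log2 fold change of all genes tested moved from 0.01 to 0.19 in HFCFD8W+T10D and to 0.38 in HFCFD12W+T10W, and in TPM (log2 of TPM + 1) to 0.17 and 0.32.

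In *Cebpa* fl/fl livers the members spanned a wide range of levels. Cathepsin L (*Ctsl*) was the most abundant, with 463 ± 29.9 TPM (SD, n = 5) in HFCFD12W+T10W, followed by the membrane glycoproteins *Lamp2* with 462 ± 19.9 TPM and *Lamp1* with 450 TPM. These 3 did not differ beyond their spread. Cathepsin K (*Ctsk*) had the lowest level with 0.942 ± 0.192 TPM, below *Atp6v0d2* with 2.12 ± 0.814 TPM and *Gla* with 2.14 ± 0.471 TPM, and the latter pair did not differ beyond their spread. Summed over all 38 members, HFCFD12W+T10W WT livers had 4038 ± 207 TPM and KO livers 5929 ± 236 TPM. In TMM-scaled CPM the sums were 6717 ± 255 and 7328 ± 270.2. The 28 widely expressed members made up most of this, with 3210 ± 144 TPM in WT and 4610 ± 145 TPM in KO livers (5774 ± 155 and 6166 ± 247 CPM), while the 5 macrophage-restricted members went from 99.8 ± 23.4 to 405 ± 37.7 TPM (110.1 ± 25.1 to 327 ± 24.6 CPM).

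**Figure D1:**
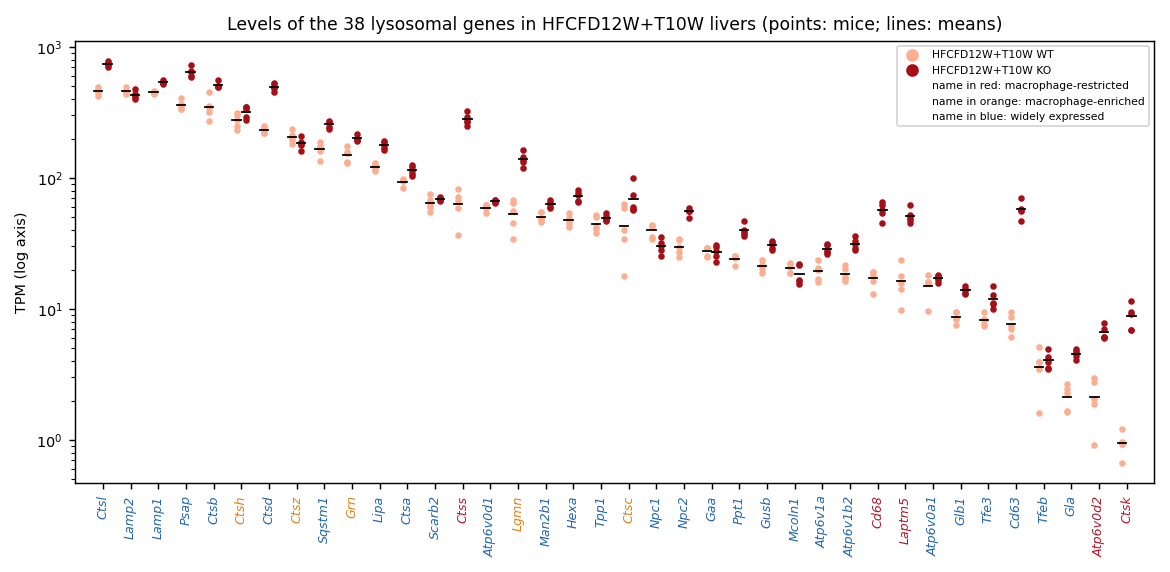
Mean TPM of each member in Cebpa fl/fl (WT) and KO livers of HFCFD12W+T10W on a log axis, 5 mice per group. Ctsl lies at 463 TPM in WT livers and Ctsk at 0.942 TPM, and Ctsk reaches 8.80 TPM in KO livers.

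The genotypes were compared within each experiment. A gene is said to have risen or fallen at an adjusted p under 0.05 (edgeR's quasi-likelihood test, adjusted over all genes tested), and a rise or fall of over 2-fold is counted separately. In HFCFD2W 37 of 38 members had enough counts to be tested, and 5 rose and 1 fell in KO livers, where 8.60% of 11068 genes rose and 8.09% fell. In 1 edgeR fit of all 30 libraries none of these 5 rises passed (adjusted p between 0.0532 and 0.139), and with DESeq2 6 members rose. None passed 2-fold, against 1.69% of all genes that did so upward and 1.38% downward. In HFCFD8W+T10D 13 of 38 rose and 1 fell, against 10.3% and 6.85% of 11990 genes. The rise was over 2-fold in 3 members (*Cd63*, *Ctss* and *Cd68*), against 4.09% of all genes, and 0 members fell by over 2-fold, against 2.01%. In HFCFD12W+T10W 17 rose and 8 fell, against 27.4% and 23.8% of 12463 genes, 7 members rose by over 2-fold, against 14.3%, and 0 members fell by over 2-fold, against 3.47%. The median log2 fold change of the members was 0.01, 0.31 and 0.22 in the 3 experiments in this order, and that of all genes tested was 0.01 in each. With library totals the split of risen and fallen members was 23 and 0 in HFCFD8W+T10D livers and 30 and 1 in those of HFCFD12W+T10W, and in TPM it was 10 and 0 in HFCFD2W, 17 and 0 after 10 days of tamoxifen and 28 and 1 after 10 weeks of it. Single mice carried some of these counts: the rises in HFCFD2W numbered 3 without WT mouse 1, 3 or 5 or KO mouse 6, and those in HFCFD8W+T10D 7 without WT mouse 3 and 8 without WT mouse 4 or KO mouse 1, 2 or 3. Set against the median of all genes, 24 of 38 members lay above it in HFCFD12W+T10W with TMM, library totals and TPM alike. A change of scaling moves all genes by nearly the same amount, so this sameness was largely fixed in advance and is no check.

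**Figure D2:**
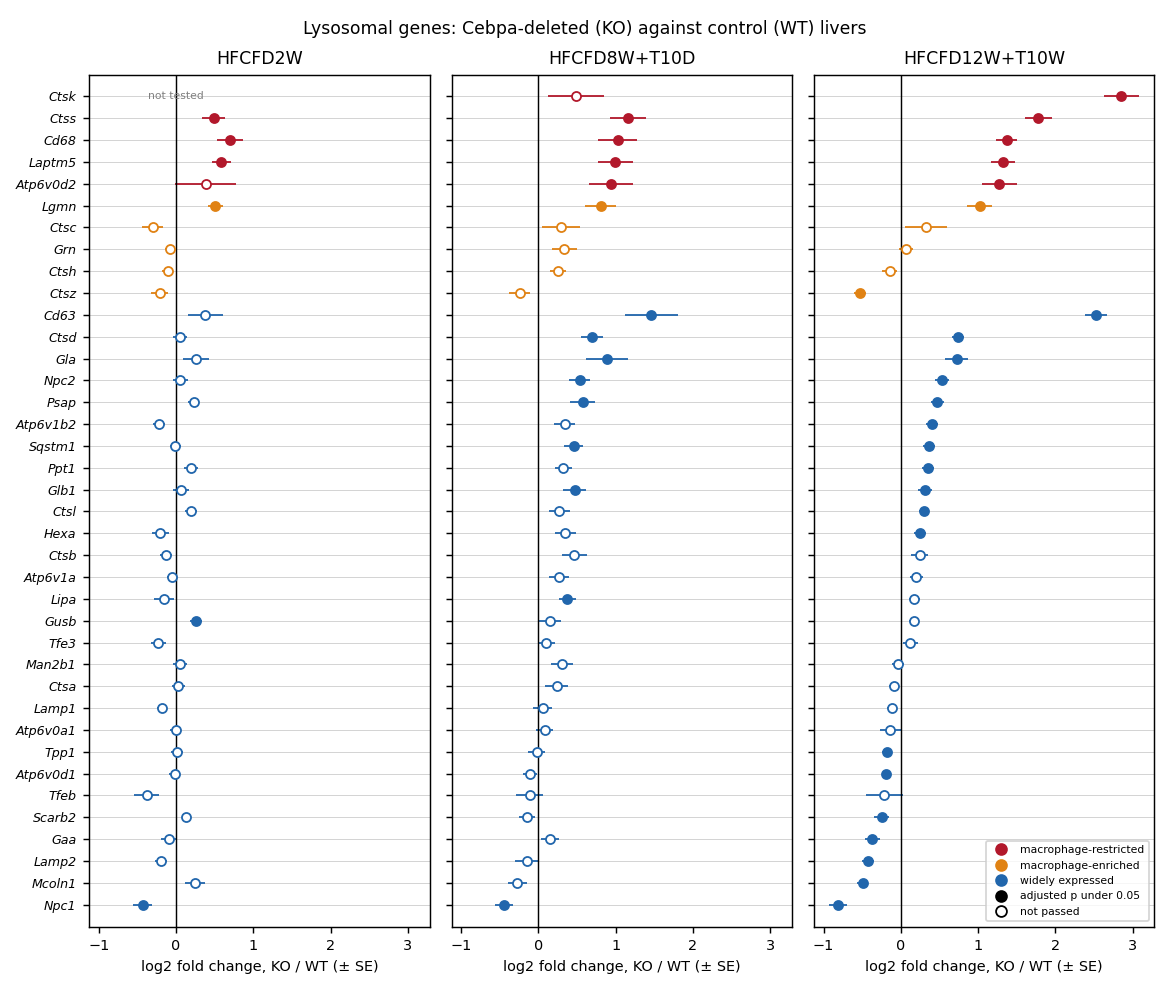
Log2 fold change (KO over WT) of each member in the 3 experiments, grouped into macrophage-restricted, macrophage-enriched and widely expressed members, from edgeR with 5 mice per genotype. The macrophage-restricted members lie between 1.28 and 2.86 in HFCFD12W+T10W, and the widely expressed members have a median of 0.17.

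All 5 macrophage-restricted members rose in HFCFD12W+T10W and some of them did in the earlier experiments. In HFCFD2W 3 of the 4 tested rose with a median log2 fold change of 0.54, in HFCFD8W+T10D 4 of 5 with a median of 0.99, and in HFCFD12W+T10W 5 of 5 with a median of 1.37, all by over 2-fold. Of all genes 8.60%, 10.3% and 27.4% rose in these experiments, and 14.3% by over 2-fold in HFCFD12W+T10W. In 1 fit of all 30 libraries none of the 3 rises in HFCFD2W passed (adjusted p = 0.058 for *Cd68*, 0.0569 for *Laptm5* and 0.139 for *Ctss*). The corresponding medians of the widely expressed members were 0.00, 0.27 and 0.17. The following values give each of the restricted members mouse by mouse.

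Cathepsin S (*Ctss*, chr3:95526786-95556403, plus strand, GRCm38), a protease that trims the invariant chain in antigen-presenting cells, was the most abundant of the 5. In HFCFD12W+T10W its values were 35.0, 60.7, 57.2, 80.6 and 66.6 CPM in the WT mice and 196, 225, 198, 179 and 203 CPM in the KO mice. Every KO mouse exceeded every WT mouse, and the log2 fold change was 1.78 ± 0.17 (SE, adjusted p = 3.95e-06). In HFCFD8W+T10D the WT mice had 110.0, 137, 118, 77.9 and 93.4 CPM and the KO mice 235, 361, 269.5, 155 and 159 CPM. The groups did not overlap there either, although KO mice 4 and 5 came closer to the WT mice than the others did, and the log2 fold change was 1.16 ± 0.23 (adjusted p = 0.00536). In HFCFD2W the WT mice had 27.6, 29.7, 23.2, 24.4 and 22.1 CPM and the KO mice 28.1, 38.02, 28.1, 48.3 and 34.5 CPM. These groups overlapped, and the rise of 0.48 ± 0.15 (adjusted p = 0.0406) was lost when any one of 7 of the 10 mice was left out (WT mice 1, 3, 4 and 5 and KO mice 3, 5 and 6), with adjusted p up to 0.0946.

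Cathepsin K (*Ctsk*, chr3:95499256-95509362, plus strand, GRCm38), the collagen-degrading protease of osteoclasts and the neighbour of *Ctss* on the chromosome, had the largest log2 fold change of the set in HFCFD12W+T10W under TMM and library totals, and the next after *Cd63* in log2 of TPM + 1 (2.32 against 2.75). Its values there were 1.07, 1.25, 1.03, 1.03 and 0.706 CPM in WT mice and 7.83, 5.44, 9.61, 7.47 and 5.49 CPM in KO mice. The groups were far apart, and the log2 fold change was 2.86 ± 0.23 (adjusted p = 9.87e-07). All 8 stellate cell markers, collagen genes among them, also rose there, beside 27.4% of all genes. Their sum was 365 ± 33.7 CPM in WT and 1321 ± 126 CPM in KO livers, and their part in the *Ctsk* values was not tested. In HFCFD8W+T10D the WT mice had 1.97, 1.68, 1.62, 0.609 and 2.16 CPM and the KO mice 1.59, 2.79, 3.68, 1.42 and 1.61 CPM. Here the groups overlapped with a log2 fold change of 0.49 ± 0.36 (adjusted p = 0.397). In HFCFD2W the libraries held 0 to 13 counts of *Ctsk*, with 0.673 ± 0.519 CPM in WT and 0.893 ± 0.562 CPM in KO mice, and the gene did not pass the filter on low counts, so that no difference could be detected at this depth.

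*Cd68* (chr11:69664213-69666153, minus strand, GRCm38), a glycoprotein of macrophage lysosomes and endosomes, rose in every experiment. It had 5.49, 5.64, 4.78, 5.79 and 4.96 CPM in the WT mice of HFCFD2W and 7.69, 8.30, 6.08, 11.6 and 9.53 CPM in the KO mice. In HFCFD8W+T10D the values were 27.2, 19.3, 21.3, 15.6 and 12.97 CPM in WT and 41.9, 58.8, 41.2, 26.6 and 24.2 CPM in KO mice. In HFCFD12W+T10W they were 9.50, 14.5, 13.5, 16.6 and 15.8 CPM in WT and 36.6, 39.0, 29.4, 37.5 and 33.6 CPM in KO mice. The genotypes were separate after 2 weeks and in HFCFD12W+T10W, and in HFCFD8W+T10D KO mice 4 and 5 lay below the highest WT mouse. The log2 fold changes were 0.70 ± 0.17 (adjusted p = 0.0140), 1.02 ± 0.25 (adjusted p = 0.0150) and 1.37 ± 0.13 (adjusted p = 4.59e-06) in the order of the experiments.

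*Laptm5* (chr4:130913125-130936141, plus strand, GRCm38), a lysosomal transmembrane protein of blood cells, behaved alike. In HFCFD2W it had 16.02, 13.8, 14.2, 17.1 and 17.02 CPM in WT and 18.1, 22.4, 24.3, 29.1 and 23.2 CPM in KO mice. The WT mice of HFCFD8W+T10D had 52.2, 49.6, 49.4, 34.5 and 35.2 CPM and the KO mice 81.7, 132, 101, 67.2 and 52.4 CPM. The WT mice of HFCFD12W+T10W had 19.8, 26.9, 32.4, 36.8 and 38.7 CPM and the KO mice 72.9, 90.6, 69.5, 74.3 and 68.5 CPM. The genotypes did not overlap in any experiment, by a narrow margin in HFCFD8W+T10D. Its log2 fold changes were 0.59 ± 0.12 (adjusted p = 0.00616), 0.99 ± 0.22 (adjusted p = 0.0101) and 1.32 ± 0.16 (adjusted p = 2.01e-05).

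*Atp6v0d2* (chr4:19876841-19922605, minus strand, GRCm38) encodes the d2 form of a proton pump subunit, made by osteoclasts and some macrophages in place of the widely expressed d1 form. In HFCFD12W+T10W it had 5.46, 3.51, 5.97, 1.835 and 3.83 CPM in WT and 11.7, 9.96, 9.19, 8.93 and 8.64 CPM in KO mice. All KO mice lay above all WT mice, with a log2 fold change of 1.28 ± 0.23 (adjusted p = 0.000528). In HFCFD8W+T10D the values were 2.43, 3.23, 1.16, 1.52 and 3.44 CPM in WT and 4.59, 3.94, 5.84, 4.98 and 3.13 CPM in KO mice. KO mouse 5 lay within the WT range, and the rise of 0.94 ± 0.29 (adjusted p = 0.0403) was lost without any one of 7 mice (WT mice 1, 3 and 4 and KO mice 1 to 4), with adjusted p up to 0.104. In HFCFD2W, with 5 to 40 counts per library, WT mice had 0.742, 2.08, 2.56, 1.38 and 2.84 CPM and KO mice 1.06, 4.49, 3.11, 2.30 and 1.61 CPM. These overlapped throughout, and the log2 fold change was 0.38 ± 0.40 (adjusted p = 0.555).

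**Figure D3:**
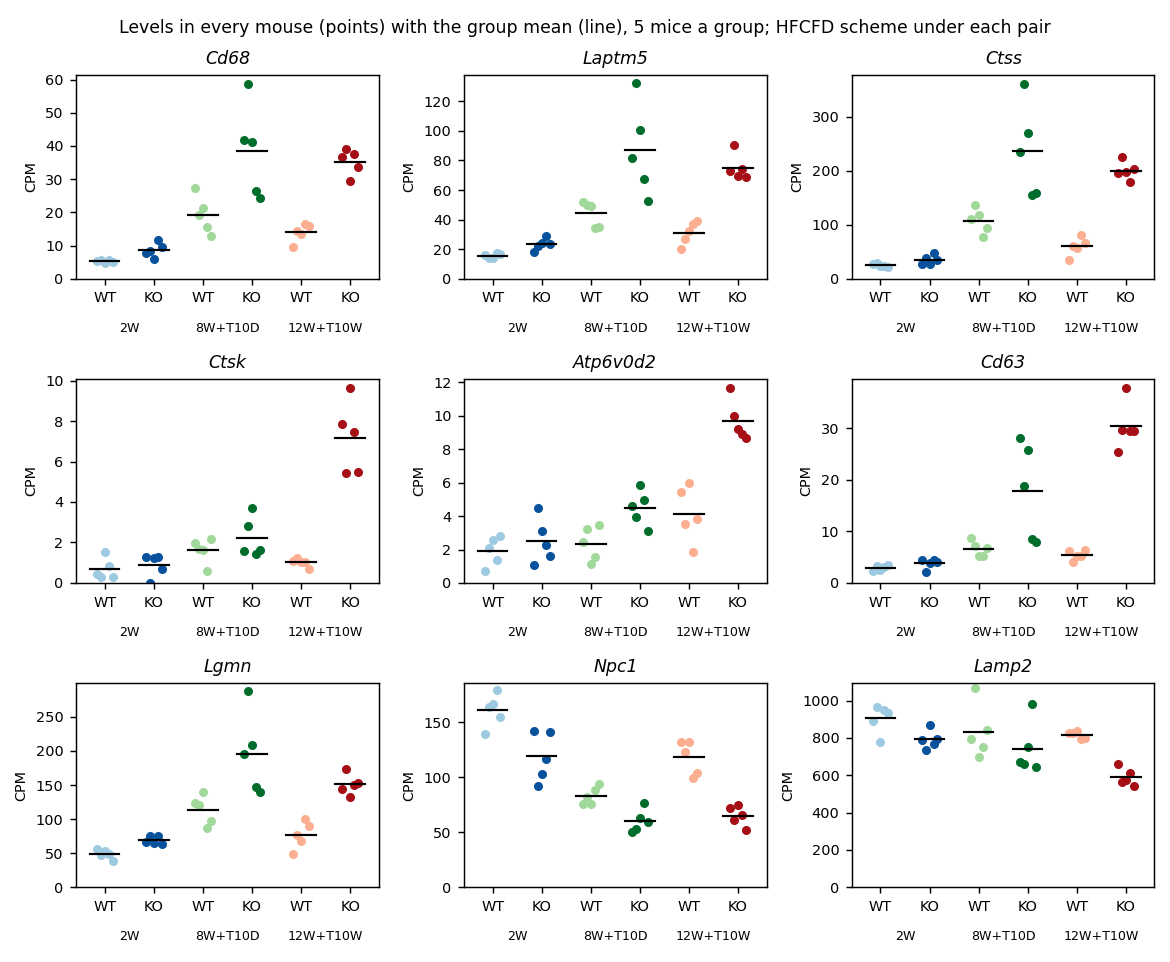
CPM of 9 members in every mouse of the 6 groups, 1 point per mouse, with the group mean as a line. For Ctsk the KO mice of HFCFD12W+T10W lie between 5.44 and 9.61 CPM and the WT mice at or below 1.25 CPM, and for Npc1 the order of the genotypes is the opposite.

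Of the 5 members enriched in macrophages, *Lgmn* rose in every experiment. *Lgmn* (chr12:102394084-102439813, minus strand, GRCm38) encodes legumain, the asparaginyl endopeptidase that processes cathepsins. In HFCFD2W it had 56.4, 47.3, 52.9, 48.5 and 38.4 CPM in WT and 66.7, 74.9, 65.4, 75.2 and 63.0 CPM in KO mice. In HFCFD8W+T10D it had 123, 121, 139, 86.8 and 96.5 CPM in WT and 195, 287, 208, 147 and 139 CPM in KO mice. In HFCFD12W+T10W it had 48.4, 76.3, 67.2, 100.5 and 89.9 CPM in WT and 144, 174, 133, 150.2 and 153 CPM in KO mice. KO mice lay above WT mice in each experiment, and the log2 fold changes were 0.50 ± 0.10 (adjusted p = 0.00390), 0.80 ± 0.20 (adjusted p = 0.0152) and 1.02 ± 0.16 (adjusted p = 0.000181). In 1 fit of all 30 libraries the rise in HFCFD2W did not pass (adjusted p = 0.0532). The other 4 enriched members did not rise in any experiment. The medians of the 5 were -0.11, 0.29 and 0.07, and cathepsin Z (*Ctsz*), an exopeptidase, fell in HFCFD12W+T10W, as given with the members that fell.

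Some markers of macrophages rose in each experiment, as restricted members did, but not all of them and not to the same degree. In HFCFD2W 11 of 17 macrophage markers had enough counts, and 4 rose (*Csf1r*, *C1qa*, *C1qb* and *C1qc*) with none lower. In HFCFD8W+T10D 13 of 17 rose and none fell, and in HFCFD12W+T10W 13 rose and 2 fell, beside 8.60%, 10.3% and 27.4% of all genes that rose and 8.09%, 6.85% and 23.8% that fell in these experiments. Those that fell were *Timd4* and *Marco*, by 2.72 and 2.35 on the log2 scale, both markers of resident Kupffer cells. Of the other 3 Kupffer cell markers *Vsig4* rose (0.55) and *Clec4f* and *Cd5l* had log2 fold changes of 0.11 and 0.52 that did not pass. The largest rises were those of *Gpnmb* (5.56), *Trem2* (4.10), *Itgax* (3.39) and *Cx3cr1* (3.13), which mark recruited or lipid-associated macrophages. No macrophage marker was at 0 throughout a group, and *Trem2* and *Gpnmb* were at 0 in 1 HFCFD2W WT library each. Summed over 6 markers of all macrophages (*Adgre1*, *Csf1r*, *Mpeg1*, *C1qa*, *C1qb* and *C1qc*), the level went from 221 ± 22.9 in WT to 240.2 ± 36.6 CPM in KO livers in HFCFD2W, from 646 ± 134 to 1124 ± 311 CPM in HFCFD8W+T10D and from 413 ± 108 to 837 ± 107 CPM in HFCFD12W+T10W. The 5 restricted members summed to 49.0 ± 2.16 and 70.9 ± 13.8 CPM, 175 ± 34.3 and 368 ± 130.4 CPM, and 110.1 ± 25.1 and 327 ± 24.6 CPM in the same groups. The log2 ratio of the members to the 6 markers differed between the genotypes in size. It was -2.17 in WT and -1.77 in KO livers in HFCFD2W on average, -1.89 and -1.64 in HFCFD8W+T10D livers, and -1.90 and -1.35 in HFCFD12W+T10W. The ratios did not overlap between genotypes in HFCFD2W (highest WT -2.04, lowest KO -1.81) or HFCFD12W+T10W (highest WT -1.82, lowest KO -1.47), and they overlapped in HFCFD8W+T10D. Single genes weigh heavily in both sums. *Ctss* held 31.1 of the 52.2 TPM of the 5 members in HFCFD2W KO livers and 282 of 405 TPM in HFCFD12W+T10W KO livers. Among the 6 markers, the genotype effect of *Mpeg1* was larger in HFCFD8W+T10D and HFCFD12W+T10W than in HFCFD2W, by 1.27 and 1.66 on the log2 scale. Neutrophil markers rose too in HFCFD12W+T10W (*S100a8* and *S100a9*, the 2 of 5 lymphocyte or neutrophil markers with enough counts), with a summed level of the 5 of 4.42 ± 1.95 CPM in WT and 30.6 ± 22.7 CPM in KO livers. How much of the rise of each member goes with the number or the kind of macrophages was not tested.

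**Figure D4:**
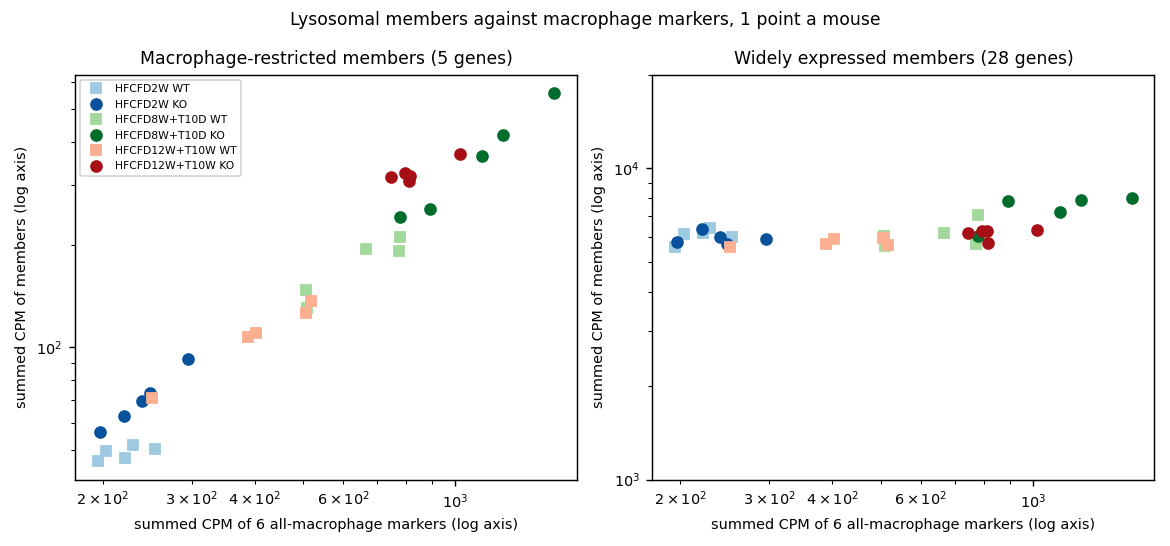
Summed CPM of the 5 macrophage-restricted members against the summed CPM of 6 markers of all macrophages, 1 point per mouse, log axes, with the 3 experiments and both genotypes marked. KO livers of HFCFD12W+T10W average 327 CPM of the members at 837 CPM of the markers, and WT livers 110.1 CPM at 413 CPM.

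Among the widely expressed members *Cd63* stood apart. *Cd63* (chr10:128900989-128912822, plus strand, GRCm38) encodes a tetraspanin of late endosomes, lysosomes and exosomes. In HFCFD12W+T10W it had 6.17, 4.08, 5.28, 5.16 and 6.46 CPM in WT and 25.5, 29.7, 37.8, 29.4 and 29.6 CPM in KO mice. In HFCFD8W+T10D it had 8.68, 7.11, 5.21, 5.18 and 6.78 CPM in WT and 28.2, 18.9, 25.8, 8.53 and 7.97 CPM in KO mice. In HFCFD2W the values were 2.23, 3.26, 2.45, 3.03 and 3.55 CPM in WT and 4.38, 2.13, 3.92, 4.47 and 4.03 CPM in KO mice. The genotypes were separate in HFCFD12W+T10W, with a log2 fold change of 2.52 ± 0.14 (adjusted p = 6.20e-08), and overlapped in HFCFD8W+T10D, where KO mice 4 and 5 lay within the WT range (1.46 ± 0.34, adjusted p = 0.0122). In HFCFD2W the log2 fold change was 0.38 ± 0.22 (adjusted p = 0.272). Reads that fit *Cd63* and its pseudogene *Cd63-ps* can be split between them, and the pseudogene held at most 5.63 estimated counts in any library. In addition to the stellate cell markers, 4 of 4 cholangiocyte markers rose in HFCFD12W+T10W, against 27.4% of all genes. Their summed levels were 4.22 ± 0.813 CPM in WT and 42.6 ± 11.05 CPM in KO livers, and the part of either list in the *Cd63* values was not tested.

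Apart from *Cd63*, the widely expressed members that rose did so by less than 2-fold. Most of them were soluble hydrolases and their helper proteins, which also make up most of the widely expressed members. Cathepsin D (*Ctsd*), the main aspartic protease of the lysosome, rose by 0.74 ± 0.07 in HFCFD12W+T10W (adjusted p = 5.64e-06), from 351, 361, 354, 367 and 388 CPM in WT to 588, 606, 598, 637 and 523 CPM in KO mice. All KO mice were above all WT mice. In HFCFD8W+T10D it rose by 0.69 ± 0.15 (adjusted p = 0.00730), from 444 ± 45.1 to 709.5 ± 126 CPM, and in HFCFD2W it had 394 ± 29.1 and 408 ± 51.4 CPM (log2 fold change 0.05 ± 0.09, adjusted p = 0.751). *Ctsl* rose by 0.30 ± 0.07 in HFCFD12W+T10W (adjusted p = 0.00312). Of the 11 proteases of the set 5 rose and 2 fell in HFCFD12W+T10W, beside 27.4% and 23.8% of all genes.

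Among the 8 glycosidases, lipases and thioesterases, 4 rose and 1 fell in HFCFD12W+T10W, beside the same shares of all genes. α-Galactosidase A (*Gla*), which removes galactose from glycolipids, rose by 0.72 ± 0.15 (adjusted p = 0.00115), and palmitoyl-protein thioesterase (*Ppt1*) rose by 0.35 ± 0.08 (adjusted p = 0.00203). β-Galactosidase (*Glb1*) rose by 0.32 ± 0.09 (adjusted p = 0.0114) and β-hexosaminidase A (*Hexa*) by 0.25 ± 0.08 (adjusted p = 0.0238), the latter lost without any one of WT mice 1 and 2 and KO mice 2 and 3 (adjusted p up to 0.0899). In HFCFD8W+T10D *Gla* rose by 0.89 ± 0.27 (adjusted p = 0.0395), *Glb1* by 0.47 ± 0.15 (adjusted p = 0.0433), and lysosomal acid lipase (*Lipa*), which hydrolyses cholesteryl esters and triglycerides, by 0.37 ± 0.11 (adjusted p = 0.0348). These 3 did not withstand leaving out single mice: *Gla* was lost without any one of 7 (WT mice 1, 3, 4 and 5 and KO mice 1 to 3, adjusted p up to 0.104), *Lipa* without any one of 6 (WT mice 3, 4 and 5 and KO mice 1, 3 and 5, up to 0.107) and *Glb1* without any one of 8 (every mouse but WT mouse 1 and KO mouse 5, up to 0.110). In HFCFD2W β-glucuronidase (*Gusb*) rose by 0.25 ± 0.08 (adjusted p = 0.0420), also lost without any one of 8 mice (every mouse but WT mouse 4 and KO mouse 5, up to 0.105).

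Of the 3 activators and carriers, the lipid-handling proteins *Psap* and *Npc2* rose in HFCFD8W+T10D and HFCFD12W+T10W, beside 10.3% and 27.4% of all genes. Prosaposin (*Psap*), the precursor of the sphingolipid activators, rose by 0.57 ± 0.16 (adjusted p = 0.0294) and 0.47 ± 0.08 (adjusted p = 0.000377), both values with TMM. Its levels in TPM, which are scaled otherwise, were 345 ± 17.8 in WT and 609 ± 203 in KO livers of HFCFD8W+T10D and 361 ± 29.6 and 645 ± 55.1 in those of HFCFD12W+T10W. The former rise was lost without any one of WT mice 1, 3, 4 and 5 and KO mice 1 to 3 (adjusted p up to 0.0858). *Npc2*, the soluble cholesterol carrier that hands cholesterol to *Npc1*, rose by 0.53 ± 0.13 (adjusted p = 0.0160) and 0.53 ± 0.09 (adjusted p = 0.000273). In HFCFD2W neither passed the test.

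*Npc1*, the membrane protein that exports cholesterol from the lysosome, fell in every experiment. In HFCFD2W it had 139.6, 164, 166, 179 and 155 CPM in WT and 142, 92.1, 102, 117 and 141 CPM in KO mice. In HFCFD8W+T10D it had 75.3, 81.6, 75.4, 88.7 and 93.3 CPM in WT and 50.5, 52.7, 62.9, 76.2 and 59.4 CPM in KO mice. In HFCFD12W+T10W it had 132, 123, 132, 99.5 and 104 CPM in WT and 71.6, 61.1, 74.8, 65.8 and 52.0 CPM in KO mice. The genotypes were separate in HFCFD12W+T10W and overlapped in the other 2 experiments, by 1 KO mouse in HFCFD8W+T10D. The log2 fold changes were -0.43 ± 0.12 (adjusted p = 0.0261), -0.44 ± 0.12 (adjusted p = 0.0212) and -0.81 ± 0.11 (adjusted p = 7.33e-05). The fall in HFCFD12W+T10W passed under library totals (-0.44) and TPM (-0.39) as well. The falls in HFCFD2W and HFCFD8W+T10D were each lost without any one of 4 mice (WT mice 2, 3 and 4 and KO mouse 4 in HFCFD2W, adjusted p up to 0.0571, and WT mice 4 and 5 and KO mice 1 and 2 in HFCFD8W+T10D, up to 0.0533). That in HFCFD8W+T10D was -0.28 with library totals (adjusted p = 0.102) and -0.18 in TPM (adjusted p = 0.471), and that in HFCFD2W was -0.39 in TPM (adjusted p = 0.0844). *Npc1* and *Npc2* thus moved in opposite directions in HFCFD12W+T10W.

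The other 7 members that fell did so in HFCFD12W+T10W under TMM. *Lamp2*, a highly glycosylated protein of the lysosomal membrane needed for fusion with autophagosomes, had 824, 828, 835, 794 and 801 CPM in WT and 658, 566, 575, 612 and 539.9 CPM in KO mice. *Mcoln1*, the calcium channel mucolipin, had 29.1, 27.2, 26.3, 29.4 and 26.3 CPM in WT and 17.6, 18.6, 19.1, 19.9 and 19.95 CPM in KO mice. *Ctsz* had 222, 196, 205, 190.2 and 237 CPM in WT and 141, 155, 144, 125 and 140.2 CPM in KO mice. In these 3 the genotypes were separate, with log2 fold changes of -0.42 ± 0.07 (adjusted p = 0.000436), -0.50 ± 0.07 (adjusted p = 7.21e-05) and -0.53 ± 0.08 (adjusted p = 0.000168). With library totals the values kept their sign but no longer passed (-0.05 for *Lamp2*, -0.12 for *Mcoln1* and -0.16 for *Ctsz*).

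Smaller falls were measured for another 4 members, and their sign depended on the scaling. Acid α-glucosidase (*Gaa*), which degrades glycogen, had 80.3, 65.9, 80.7, 68.9 and 75.1 CPM in WT and 53.1, 61.0, 61.3, 57.6 and 45.8 CPM in KO mice (-0.37 ± 0.09, adjusted p = 0.00525). *Scarb2*, the receptor that delivers β-glucocerebrosidase to lysosomes, had 229, 244, 241, 290.0 and 201 CPM in WT and 207, 185, 203, 204 and 183 CPM in KO mice (-0.25 ± 0.09, adjusted p = 0.0403). The groups were separate for *Gaa* and overlapped for *Scarb2*. *Atp6v0d1*, the d1 form of the pump subunit, had 69.6, 68.9, 64.3, 71.1 and 70.8 CPM in WT and 59.1, 58.0, 60.4, 57.4 and 57.5 CPM in KO mice (-0.19 ± 0.06, adjusted p = 0.0110). Tripeptidyl peptidase 1 (*Tpp1*) had 119, 101, 117, 115 and 102 CPM in WT and 98.3, 98.2, 91.6, 94.5 and 91.7 CPM in KO mice (-0.18 ± 0.07, adjusted p = 0.0390). Both were separate between the genotypes. With library totals the log2 fold changes became 0.00 for *Gaa*, 0.12 for *Scarb2*, 0.18 for *Atp6v0d1* and 0.19 for *Tpp1*, and the latter 2 then passed as higher. Relative to the median of all genes they were -0.38, -0.26, -0.21 and -0.19. These values were the same to 2 decimals with library totals as with TMM, since the scaling moves all genes nearly alike. These 4 thus lay below the typical gene, while their absolute direction depended on the scaling. Under TMM the fall was lost without any one of 5 mice for *Scarb2* (WT mice 3 and 4 and KO mice 2, 4 and 5, adjusted p up to 0.0874) and for *Tpp1* (WT mice 1 and 3 and KO mice 3, 4 and 5, up to 0.0768).

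**Figure D5:**
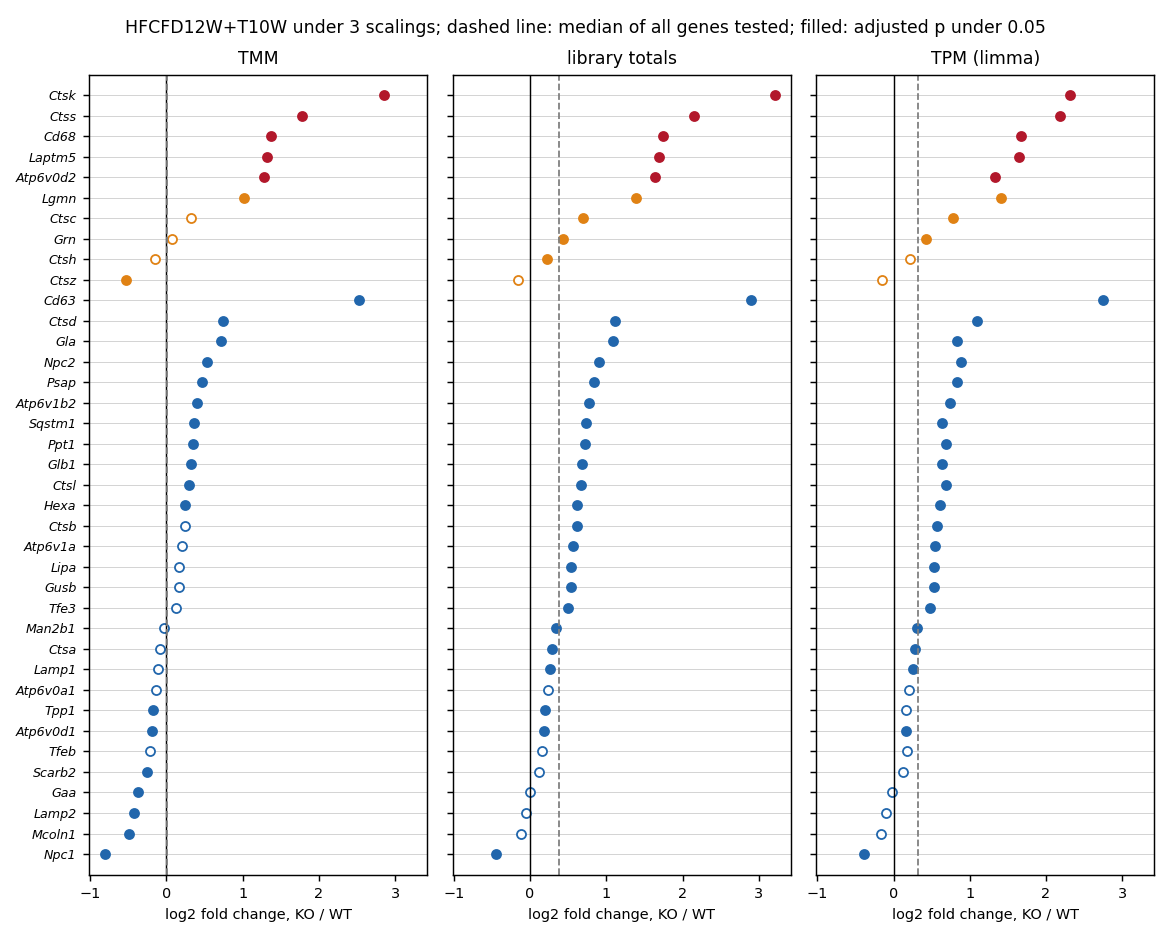
Log2 fold change (KO over WT) of the members in HFCFD12W+T10W under TMM and under other scalings, 1 point per member, with the median of all genes tested under each scaling. The median of all genes is 0.01 with TMM and 0.38 with library totals, and 24 of 38 members lie above it under either scaling and in TPM. The scaling moves all genes by nearly the same amount, so that number could hardly differ.

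Of the 8 membrane proteins 3 rose in HFCFD12W+T10W (*Cd63*, *Cd68* and *Laptm5*, all by over 2-fold), beside 27.4% of all genes. Another 4 fell (*Npc1*, *Mcoln1*, *Lamp2* and *Scarb2*), beside 23.8%, and *Scarb2* reversed its sign with library totals and in TPM. *Lamp1* had a log2 fold change of -0.11 with TMM (adjusted p = 0.182) and of 0.26 with library totals. Of the 5 pump subunits, *Atp6v0d2* and *Atp6v1b2*, the widely expressed B2 subunit, rose (1.28 and 0.40 ± 0.08, adjusted p = 0.000773 for the latter) and *Atp6v0d1* fell under TMM, beside the same shares of all genes. The d2 and d1 forms thus lay on opposite sides of the typical gene, a position that a change of scaling hardly moves. In TPM, *Atp6v0d2* went from 2.12 ± 0.814 to 6.63 ± 0.800 and *Atp6v0d1* from 59.4 ± 3.61 to 66.6 ± 1.67, so that the d1 form remained the more abundant one.

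The 2 members that regulate lysosomal transcription, *Tfeb* and *Tfe3*, did not pass the test under TMM. *Tfeb* had 8.45, 5.79, 7.22, 6.21 and 5.82 CPM in WT and 3.90, 5.94, 5.81, 4.72 and 5.37 CPM in KO mice of HFCFD2W, 6.14, 4.52, 7.99, 6.29 and 6.00 against 4.96, 6.00, 4.76, 7.23 and 5.50 CPM in HFCFD8W+T10D, and 2.49, 5.09, 5.85, 7.80 and 5.85 against 3.83, 3.60, 4.55, 5.19 and 5.49 CPM in HFCFD12W+T10W. The genotypes overlapped in each, with log2 fold changes of -0.38 ± 0.16, -0.11 ± 0.18 and -0.21 ± 0.24 (adjusted p = 0.125, 0.719 and 0.486). *Tfe3* had 14.2, 16.6, 17.7, 16.1 and 15.2 CPM in WT and 11.9, 12.4, 14.5, 13.9 and 15.6 CPM in KO mice of HFCFD2W, 18.1, 16.4, 19.2, 18.8 and 22.2 against 20.96, 22.6, 17.6, 19.2 and 20.2 CPM in HFCFD8W+T10D, and 17.1, 17.7, 17.8, 22.02 and 16.5 against 20.3, 20.7, 19.6, 16.7 and 19.1 CPM in HFCFD12W+T10W. These overlapped as well, with log2 fold changes of -0.23 ± 0.10, 0.10 ± 0.11 and 0.12 ± 0.10 (adjusted p = 0.132, 0.578 and 0.305). In HFCFD12W+T10W *Tfe3* passed as higher with library totals (0.50, adjusted p = 0.000629) and in log2 of TPM + 1 (0.48, adjusted p = 0.00375 with limma), where it lay 0.11 and 0.16 above the median of all genes, and *Tfeb* had 0.16 and 0.18 there without passing. Both factors are controlled largely by their place in the cell, which mRNA does not show. *Sqstm1*, the autophagy receptor p62, rose by 0.45 ± 0.12 in HFCFD8W+T10D (adjusted p = 0.0218) and by 0.37 ± 0.07 in HFCFD12W+T10W (adjusted p = 0.00129), the former lost without any one of WT mice 1 and 3 and KO mouse 2 (adjusted p up to 0.0583). Its levels in HFCFD12W+T10W were 228, 218, 248, 203 and 239.9 CPM in WT and 305, 297, 271, 273 and 276 CPM in KO mice, without overlap.

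A further 63 lysosomal genes outside the set (28 hydrolases, 13 pump subunits, 11 membrane proteins, 6 sorting factors and 5 regulators) give the rest of the pathway. In HFCFD2W 6 of the 62 tested rose and 3 fell, in HFCFD8W+T10D 11 of 63 rose and 2 fell, and in HFCFD12W+T10W 16 rose and 13 fell. The shares over all genes were 8.60% and 8.09%, 10.3% and 6.85%, and 27.4% and 23.8% in the same order. The medians were 0.02, 0.17 and 0.02, beside 0.01 over all genes. In HFCFD12W+T10W 2 of the 63 rose by over 2-fold, against 14.3% of all genes. They were *Rragd*, a GTPase that couples lysosomal nutrients to mTORC1, which rose by 2.32, 1.88 and 2.84 on the log2 scale from the earliest to the latest experiment, and *Slc15a3*, a peptide and histidine transporter of immune cells, with 1.11 in HFCFD8W+T10D and 1.52 in HFCFD12W+T10W.

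Whether a genotype effect differed between experiments was tested as an interaction in 1 fit of all 30 libraries, in which 12964 genes were tested, and the 3 differences share groups. HFCFD12W+T10W minus HFCFD8W+T10D was positive and passed for 1 member, *Ctsk* (2.34 ± 0.55, adjusted p = 0.00726), against 4.97% of genes, and negative for 2, *Gaa* (-0.55 ± 0.15, adjusted p = 0.0218) and *Ctsh* (-0.42 ± 0.12, adjusted p = 0.0275), against 5.49%. In the same difference the 17 macrophage markers had a median of 0.23 and a maximum of 1.82. The 8 stellate cell markers had a median of 0.89 and a maximum of 2.19. HFCFD12W+T10W minus HFCFD2W was positive for 7 of 38, against 13.4% of genes, and negative for 2, against 17.3%. Among these were *Cd63* (2.10 ± 0.43, adjusted p = 0.000519), *Ctsk* (2.49 ± 0.67, adjusted p = 0.00581), *Ctss* (1.26 ± 0.29, adjusted p = 0.00170) and *Mcoln1* (-0.78 ± 0.16, adjusted p = 0.000523). HFCFD8W+T10D minus HFCFD2W was positive for 7, against 4.45% of genes, and negative for 1, *Mcoln1* (-0.53 ± 0.16, adjusted p = 0.0282), against 6.79%. All of these 7 are widely expressed, with values from 0.45 (*Sqstm1*) to 0.63 (*Ctsd*) and SEs of 0.12 to 0.17. The median difference there was 0.39 over the restricted and 0.25 over the widely expressed members. None of the restricted members passed, with larger SEs of 0.27 to 0.67. For HFCFD12W+T10W minus HFCFD2W the median difference was 0.85 over the restricted and 0.12 over the widely expressed members, beside -0.01 over all genes. The 3 differences between the later experiments numbered 1 without WT mouse 5 or KO mouse 4 of HFCFD8W+T10D or WT mouse 3 of HFCFD12W+T10W and 6 without KO mouse 5 of HFCFD8W+T10D. The 8 between HFCFD8W+T10D and HFCFD2W numbered 4 without WT mouse 2 of HFCFD2W or WT mouse 4 of HFCFD8W+T10D, 5 without KO mouse 6 of HFCFD2W or KO mouse 1 or 2 of HFCFD8W+T10D, and 2 with the replicate number as a block. With library totals 16 and 25 members passed for the differences of HFCFD8W+T10D and HFCFD12W+T10W from HFCFD2W.

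The level from which the KO livers departed also differed between the *Cebpa* fl/fl groups. From HFCFD2W to HFCFD8W+T10D 16 members were higher, against 22.2% of genes, and 4 were lower, against 21.5%. The largest of these differences were those of *Ctss* (2.08 ± 0.21, adjusted p = 1.87e-08), *Cd68* (1.85 ± 0.23, adjusted p = 4.08e-07), the enriched member *Ctsc* (1.80 ± 0.26, adjusted p = 3.87e-06) and *Laptm5* (1.498 ± 0.20, adjusted p = 1.14e-06). Of the restricted members 4 of 5 were higher with a median of 1.498 and of the enriched ones 4 of 5 with a median of 0.78, beside medians of 0.03 for the widely expressed members and 0.02 for all genes. Macrophage markers were higher for 16 of 17 in the same comparison. *Atp6v0d2* was the restricted member that did not pass (0.28 ± 0.37, adjusted p = 0.566). *Npc1* was the member that lay lowest, with a difference of -0.96 ± 0.12 (adjusted p = 7.65e-07). From HFCFD8W+T10D to HFCFD12W+T10W 2 members were higher, against 6.31% of genes, *Npc1* (0.51 ± 0.12, adjusted p = 0.00673) and *Scarb2* (0.27 ± 0.08, adjusted p = 0.0296). The 2 that were lower, against 5.12%, were *Ctss* (-0.84 ± 0.20, adjusted p = 0.00622) and *Lgmn* (-0.57 ± 0.17, adjusted p = 0.0285), beside 9 of 17 macrophage markers that were lower and 1 that was higher. These 4 differences numbered 2 without WT mouse 1 of HFCFD8W+T10D or WT mouse 2 of HFCFD12W+T10W and 7 without WT mouse 5 of HFCFD12W+T10W. *Atp6v0d2* had 0.80 ± 0.33 in this comparison (adjusted p = 0.115), opposite in sign to the 9 macrophage markers that were lower.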

How the data were processed

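The submitters' processing notes name Trimmomatic 0.36, STAR 2.5.1, Picard 1.84, RSEM 1.2.22 and DESeq2 and the build mm10, without their settings. The authors deposited RSEM expected counts, not normalized, and TPM per library, both used here. Their series tables of further normalized values were not used. Expected counts of the table and of the per-library files differed by at most 0 and were rounded (11.3% of non-zero values were not whole). RSEM splits reads that fit several genes, so single members of gene families are uncertain. No libraries were identical.

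In R 4.3.3, edgeR 4.0.16 removed low counts with filterByExpr by genotype, scaled by TMM and compared KO with WT within each experiment (glmQLFit, glmQLFTest, Benjamini-Hochberg over all genes tested), and 1 fit of 6 groups gave differences between experiments. Fold changes used edgeR's default prior count, and a prior count of 2 was used only for log2 CPM. P-values measure the spread between mice, 5 per group. Alternatives were DESeq2 1.42.0, limma 3.58.1 on log2 TPM with a pseudocount of 1 or 0.1, other scalings, no filter, a robust fit, 1 joint fit, a replicate block, a fold threshold of 2 and each mouse left out. On simulated counts for HFCFD12W+T10W (12306 genes) the test called 44.3%, 77.3% and 96.7% of genes changed 1.5-, 2- and 4-fold, with 3.43% false calls. At 1.5-fold it called 51.6% for HFCFD2W and 25.8% for HFCFD8W+T10D, with 5.84% and 1.48% false calls. Few genes were changed in the simulation, up or down at random. It held no shift in TMM factors between genotypes, so it cannot speak to the dependence on scaling. Values are given per mouse for macrophage-restricted members, *Tfeb*, *Tfe3*, members that rose over 2-fold and those that fell. Values per mouse of *Ctsd* and *Sqstm1* fall outside this rule and were chosen after they were seen. The members and lists were chosen with earlier results of these data known.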

Additional observations from a re-analysis of the deposited data

Results flagged for a closer look

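A single mouse stood apart from the other 4 of its group, by Dixon's test of the gap to the nearest value at the 95% level, in 5 of 102 sets of 5 values (17 members in 6 groups), and chance flags about 1 in 20. *Ctsz* was lowest in KO mouse 5 of HFCFD2W with 126 CPM, and the other 4 lay between 178 and 195 CPM. *Tpp1* was highest in WT mouse 2 of HFCFD8W+T10D with 133 CPM, and the others lay between 105 and 112 CPM. *Laptm5* was highest in KO mouse 2 of HFCFD12W+T10W with 90.6 CPM, beside 68.5 to 74.3 CPM. *Cd63* was lowest in KO mouse 3 of HFCFD2W with 2.13 CPM, beside 3.92 to 4.47 CPM. *Tfe3* was highest in WT mouse 4 of HFCFD12W+T10W with 22.02 CPM, beside 16.5 to 17.8 CPM.

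The genotype effect (log2) differed between experiments by the interaction test for 20 pairs of a member and a difference. Between HFCFD12W+T10W and HFCFD8W+T10D the differences were 2.34 for *Ctsk*, -0.42 for *Ctsh* and -0.55 for *Gaa*. Between HFCFD12W+T10W and HFCFD2W they were 1.26 for *Ctss*, 2.49 for *Ctsk*, 0.65 for *Ctsd*, 0.44 for *Npc2*, 2.10 for *Cd63*, -0.43 for *Scarb2*, -0.78 for *Mcoln1*, 0.58 for *Atp6v1b2* and 0.33 for *Sqstm1*. Between HFCFD8W+T10D and HFCFD2W they were 0.58 for *Ctsb*, 0.63 for *Ctsd*, 0.52 for *Lipa*, 0.54 for *Hexa*, 0.47 for *Npc2*, -0.53 for *Mcoln1*, 0.55 for *Atp6v1b2* and 0.45 for *Sqstm1*. Diet time, Cre line, tamoxifen and experiment cannot be told apart in these differences.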

How the results depend on the processing

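With library totals, 30 members rose and 1 fell in HFCFD12W+T10W and 23 and 0 in HFCFD8W+T10D, the median of the restricted members in HFCFD12W+T10W was 1.74, that of the widely expressed was 0.54 there and 0.45 in HFCFD8W+T10D, and the genotype effect differed for 25 (HFCFD12W+T10W minus HFCFD2W) and 16 members (HFCFD8W+T10D minus HFCFD2W). With limma on TPM + 1 and TPM + 0.1 alike, 28 rose and 1 fell in HFCFD12W+T10W, 10 and 0 in HFCFD2W, and 0 fell in HFCFD8W+T10D. The medians were then 1.67 and 1.72 (restricted, HFCFD12W+T10W), and 0.53 and 0.54 (HFCFD12W+T10W), 0.45 and 0.46 (HFCFD8W+T10D), 0.11 and 0.11 (HFCFD2W) for the widely expressed. Upper-quartile scaling gave 5 falls and a widely expressed median of 0.25 in HFCFD12W+T10W, and 14 (HFCFD12W+T10W minus HFCFD2W) and 1 (HFCFD12W+T10W minus HFCFD8W+T10D) differences. The joint fit gave 0 rises in HFCFD2W, 20 in HFCFD8W+T10D and a widely expressed median of 0.13 in HFCFD12W+T10W. DESeq2 gave 2 falls in HFCFD2W and 7 differences between the later control groups. A fold over 2 left 7, 3 and 0 rises in HFCFD12W+T10W, HFCFD8W+T10D and HFCFD2W, and 0 falls in each.

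In HFCFD12W+T10W signs reversed with library totals, TPM + 1 and TPM + 0.1 for *Atp6v0d1* (0.18, 0.17, 0.17), *Ctsa* (0.29, 0.28, 0.28), *Lamp1* (0.26, 0.26, 0.26), *Man2b1* (0.34, 0.31, 0.32), *Scarb2* (0.12, 0.12, 0.13) and *Tpp1* (0.19, 0.16, 0.16), and with library totals for *Gaa* (0.0034) and *Ctsh* (0.23). Relative to the median of all genes under the same scaling, these values were negative with library totals, a position that a change of scaling hardly moves.

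Leaving out each mouse gave 3 to 4 rises and 0 to 1 falls in HFCFD2W, 7 to 16 and 0 to 1 in HFCFD8W+T10D, and 16 to 19 and 6 to 8 in HFCFD12W+T10W. Restricted medians were 0.45 to 0.62, 0.81 to 1.11 and 1.33 to 1.43, and widely expressed medians -0.03 to 0.03, 0.21 to 0.32 and 0.12 to 0.19. Differences numbered 1 to 6 (HFCFD12W+T10W minus HFCFD8W+T10D), 7 to 13 (HFCFD12W+T10W minus HFCFD2W) and 4 to 12 (HFCFD8W+T10D minus HFCFD2W), and those of controls 17 to 21 and 2 to 7. Replicate numbers did not pair the mice: correlations of same-numbered deviations were -0.31 to 0.08, -0.08 to 0.18 and -0.05 to 0.20. With the replicate block 2 members rose in HFCFD2W, 10 did so in HFCFD8W+T10D and 17 did so in HFCFD12W+T10W, and 2 differed between HFCFD8W+T10D and HFCFD2W. At this depth *Ctsk* could not be tested in HFCFD2W.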
